A study of Mus musculus with 6 samples.

Results

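Heparan sulfate is a long sugar chain carried on core proteins of the cell surface and the matrix, and the genes that build, sulfate, trim and carry it were examined here in primary mouse renal fibroblasts cultured alone or cocultured with T helper 17 (Th17) cells. The 34 genes were chosen by gene name, with results of this same contrast already known: Ndst4 had been seen among the largest increases after coculture. They comprised 22 enzymes and 12 core proteins among the 34745 genes of the table, and every value below of the difference between the cultures is therefore a description of these genes and no independent evidence about the pathway. The wild-type fibroblasts, grown out of digested kidney tissue, were allowed to attach for 6 h, and in the cocultured group Th17 cells, the interleukin-17 secreting class of helper T cells, were then kept in an insert with 0.4 μm pores above them for 24 h before the fibroblasts were collected. The group cultured alone was labelled as untreated. The sources do not tie the fibroblasts to a strain or age of mouse. They do not state how long the group alone was kept after attachment, or whether it received an empty insert. Any difference in culture time can therefore not be told apart from coculture. What the 3 libraries of each group were replicates of (wells, cultures or mice) is not stated either, so every SD and p-value below describes the spread between libraries.

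Heparan sulfate chains begin on a linker sugar shared with chondroitin sulfate and are lengthened by the exostosin (EXT) polymerases. N-deacetylase/N-sulfotransferases (NDSTs) then replace acetyl groups with sulfate, which opens the chain to an epimerase and to sulfotransferases acting at the 2-O, 6-O and 3-O positions. The pattern of sulfate groups sets which growth factors, chemokines and enzymes a chain binds, and it is edited outside the cell by the SULF endosulfatases and cut by heparanase. The chains are carried by syndecans, which span the membrane, by glypicans, which are anchored to it through a lipid, and by the secreted basement membrane proteins perlecan and agrin. In the kidney, heparan sulfate is best known as a component of basement membranes and as a site where chemokines are held.

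Total counts ranged from 12050529 to 13209581 per library, and 3 counts, the limit that an observed count of 0 allows, corresponded to 0.223 to 0.254 CPM, the count scaled to the library total. The 8 fibroblast markers were expressed in all 6 libraries, but their summed level was 33750 to 35640 CPM alone and 14010 to 15680 CPM after coculture, with 7 of the 8 lower and 1, Dcn, higher. T cell markers summed to 3.11 to 4.27 CPM alone and to 2.12 to 3.35 CPM after coculture, with 3 of 9, Cd3d, Il17a and Il17f, at 0 in every library. Trac was the largest part of this sum, with means of 2.64 CPM alone and 2.69 CPM after coculture, and Ptprc was at 0 in every cocultured library. Macrophage markers summed to 57.97 to 61.21 CPM alone and to 20.02 to 21.24 CPM after coculture, and Adgre1, C1qa and C1qb were at 0 in all cocultured libraries. C1qa and C1qb had few counts alone as well, 0, 5 and 3 and 3, 3 and 0. Cd68, Csf1r, Itgam and Lyz2 had lower means after coculture but were still counted, and Cd14 had a mean of 11.18 CPM in each group. Endothelial markers summed to 6.80 to 8.04 CPM alone and 2.06 to 3.07 CPM after coculture, and epithelial markers to 19.4 to 21.3 CPM and 3.66 to 4.88 CPM, with Emcn and Nphs1 at 0 in every library. The endothelial difference lay mainly in Kdr, with means of 5.55 CPM alone and 0.127 CPM after coculture. Cdh5 also had a lower mean, and Pecam1, Tek and Vwf did not. Krt19 was the largest part of the epithelial sum, with means of 15.4 CPM alone and 2.48 CPM after coculture. The part of these other cells in the results below was not tested, and in bulk RNA fewer cells of a type and less RNA per cell cannot be told apart. Cocultured replicate 3 differed more from the other cocultured libraries than they did from each other, with a chi-square of 15.0 and 13.8 per gene against 8.37.

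After coculture with Th17 cells, genes of both classes differed by more than 2-fold from their level in fibroblasts alone. Among the enzymes, the N-sulfotransferase Ndst4 and the 3-O-sulfotransferases Hs3st3a1 and Hs3st3b1 were higher by more than 2-fold, whereas heparanase (Hpse) and the exostosin-like gene Extl1 were lower. Among the core proteins, the glypican Gpc3 and the syndecan Sdc4 were lower by more than 2-fold and none was higher. Of the 34 genes, 30 had enough counts to be tested, 19 enzymes and 11 core proteins. With both limits applied in edgeR's quasi-likelihood test (adjusted p under 0.05, change over 2-fold), 3 of the 19 enzymes were higher, where 3.87% of all 13088 genes tested were, and 2 of 19 were lower, where 7.78% of all genes were. Of the 11 core proteins, 0 were higher and 2 were lower at that threshold. Among the genes past both limits, Ndst4 and Hs3st3b1 had enough counts to be tested only through the cocultured libraries. Extl1 and Gpc3 had enough only through the libraries alone. With at least 10 counts required in every library these genes were not tested. The calls were then 1 enzyme higher, 1 enzyme lower and 1 core protein lower.

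Without the limit on fold change, 4 enzymes and 1 core protein were higher, against 17.1% of all genes, and 7 enzymes and 7 core proteins were lower, against 20.0% of all genes. The groups did not overlap in CPM for 15 enzymes and 8 core proteins, where 50.4% of all genes showed no overlap. The median log2 fold change was -0.08 over the enzymes tested and -0.43 over the core proteins tested, beside 0.00 over all genes. Because the list was chosen with this contrast in view, nothing is read from these shares.

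**Figure D1:**
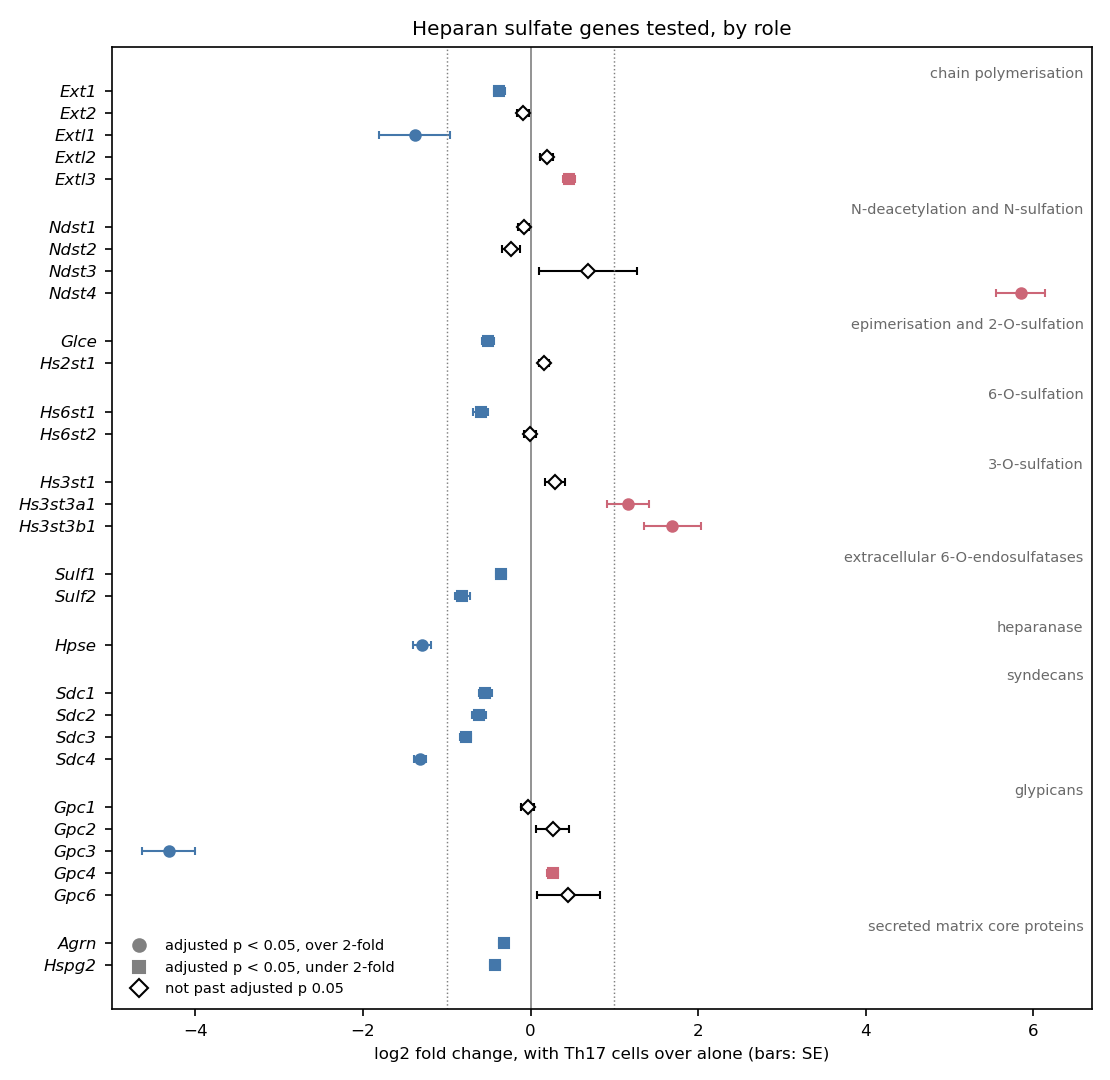
The log2 fold change of fibroblasts cocultured with Th17 cells over fibroblasts alone (x axis, with SE bars) is plotted for the 30 genes tested, grouped by role, with dotted lines at a 2-fold change. All 4 syndecans and both SULF genes lie to the left of 0, Ndst4 (5.85) lies farthest to the right and Gpc3 (-4.32) farthest to the left.

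**Figure D2:**
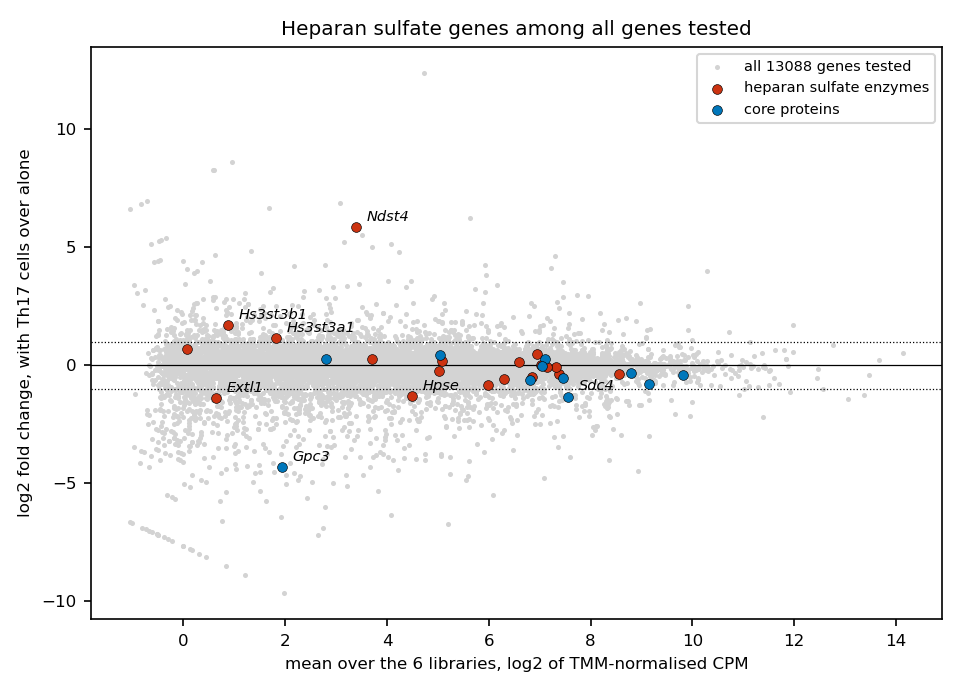
The log2 fold change (y axis) is plotted against the mean level over the 6 libraries (x axis, log2 of CPM) for all 13088 genes tested in grey, with the enzymes in red and the core proteins in blue. Ndst4 and Gpc3 lie farthest from 0 among the 30 genes, and most other heparan sulfate genes lie within 2-fold of no change.

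Promoter windows are shown for the genes of the list that lie close together and changed, and for the syndecan with the largest change. Gpc3 and Gpc4 are neighbours on the X chromosome, on the same strand and 107.2 kb apart with 0 protein-coding genes between them, and Gpc3 fell while Gpc4 rose. Hs3st3a1 and Hs3st3b1 lie on chromosome 11 on opposite strands, 513 kb apart with 1 protein-coding gene between them, and both rose. The windows hold 250 bases before and 50 bases after the RefSeq start site in GRCm38.p6 and are written 5′ to 3′ on the strand of the gene. Capitals mark matches, on either strand, to a GC box (GGGCGG), an E-box (CACGTG) or the NF-kB consensus.
Gpc3: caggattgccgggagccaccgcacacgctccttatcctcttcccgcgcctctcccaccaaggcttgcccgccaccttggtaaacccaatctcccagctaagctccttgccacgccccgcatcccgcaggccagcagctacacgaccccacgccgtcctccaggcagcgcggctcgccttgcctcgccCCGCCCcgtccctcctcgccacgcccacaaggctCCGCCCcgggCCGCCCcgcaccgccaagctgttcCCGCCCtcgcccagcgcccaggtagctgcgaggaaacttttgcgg
Gpc4: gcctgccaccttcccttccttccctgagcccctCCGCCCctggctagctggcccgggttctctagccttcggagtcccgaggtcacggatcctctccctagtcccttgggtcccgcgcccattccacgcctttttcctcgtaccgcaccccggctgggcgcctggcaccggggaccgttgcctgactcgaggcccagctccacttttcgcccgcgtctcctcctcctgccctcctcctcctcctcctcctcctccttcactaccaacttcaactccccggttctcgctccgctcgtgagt
Hs3st3a1: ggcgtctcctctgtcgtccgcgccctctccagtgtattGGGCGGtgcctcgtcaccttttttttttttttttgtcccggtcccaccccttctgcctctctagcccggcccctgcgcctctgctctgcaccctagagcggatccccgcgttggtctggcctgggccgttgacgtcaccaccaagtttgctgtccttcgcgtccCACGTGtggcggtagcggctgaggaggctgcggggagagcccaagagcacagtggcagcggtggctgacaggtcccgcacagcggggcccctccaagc
Hs3st3b1: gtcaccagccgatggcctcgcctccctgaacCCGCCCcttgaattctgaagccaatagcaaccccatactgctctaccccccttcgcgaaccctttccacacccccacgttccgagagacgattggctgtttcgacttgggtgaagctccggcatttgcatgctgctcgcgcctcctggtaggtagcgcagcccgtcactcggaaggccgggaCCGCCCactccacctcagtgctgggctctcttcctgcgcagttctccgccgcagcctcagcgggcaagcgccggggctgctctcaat
Sdc4: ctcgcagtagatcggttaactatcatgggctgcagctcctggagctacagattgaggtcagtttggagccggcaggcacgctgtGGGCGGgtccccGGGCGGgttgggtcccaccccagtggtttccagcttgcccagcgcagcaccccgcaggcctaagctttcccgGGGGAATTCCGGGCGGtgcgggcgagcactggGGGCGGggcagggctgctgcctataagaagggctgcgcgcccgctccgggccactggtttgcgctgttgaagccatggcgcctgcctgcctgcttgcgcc
These windows are Gpc3 at chrX:52613925-52614224 on the minus strand, Gpc4 at chrX:52164874-52165173 on the minus strand, Hs3st3a1 at chr11:64435082-64435381 on the plus strand, Hs3st3b1 at chr11:63922235-63922534 on the minus strand and Sdc4 at chr2:164443139-164443438 on the minus strand. The start site used lies 699 bases inside the 5′ end of the gene as the table gives it in Sdc4 and 329 bases inside it in Gpc4, so these windows lie within the genes as the table gives them.

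The Gpc3 window held 4 GC boxes and the Gpc4 window 1. The Hs3st3b1 window held 2 GC boxes, and the Hs3st3a1 window held 1 GC box and 1 E-box. The Sdc4 window held 4 GC boxes and, directly before the third of them, 1 NF-kB match. All 7 motifs were searched on both strands, and a match describes letters in a window and not a bound site. RefSeq windows were used for 25 of the 34 genes, 30 windows in all, of which 21 (70.0%) held a GC box, where 35.6% of all 32817 windows did. Ndst4 had no window. Windows on chromosome 18, where Ndst1 lies, were left out for the 34 genes but kept among all windows. The NF-kB consensus was in 4 of the 30 (13.3%) against 8.46% of all windows, the E-box in 3 of the 30 against 7.15%, and a TATA box (TATAAA) in 3 of the 30 against 13.6%. The interferon-response core (GAAANNGAA) was in 1 (3.33%) against 8.55%, and the AP-1 motif (TGANTCA) and the STAT motif (TTCNNNGAA) were in 0 of the 30, against 7.81% and 8.29%.

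Of the polymerases, Ext1, which with Ext2 forms the enzyme that lengthens the chain, had the highest level, at 47.3 ± 0.907 FPKM alone and 38.2 ± 2.85 FPKM after coculture (SD, n = 3 each, FPKM being fragment counts scaled to gene length and library total). Its level was 417.3, 423.1 and 430.8 CPM in the libraries alone and 347.1, 337.2 and 298.3 CPM after coculture. All cocultured libraries lay below those alone, and Ext1 fell by 0.37 ± 0.07 (SE) on the log2 scale (edgeR adjusted p = 0.00231). Ext2 had a log2 fold change of -0.09 that did not pass the test (edgeR adjusted p = 0.365), so only the Ext1 partner of the pair passed it. Extl3, which starts the chain on the linker, rose from 103 ± 3.35 to 142 ± 10.6 CPM, or 0.46 ± 0.07 on the log2 scale (edgeR adjusted p = 0.000888).

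Extl1, a less well understood exostosin-like gene, was measured by few counts: 37, 23 and 25 alone and 15, 15 and 4 after coculture. No cocultured library reached the level of any library alone, with a mean of 2.27 ± 0.544 CPM alone and 0.867 ± 0.488 CPM after coculture. The log2 fold change was -1.38 ± 0.43 (edgeR adjusted p = 0.0308), and this call rested on particular libraries. Without replicate 1 of the libraries alone it was -1.18 (edgeR adjusted p = 0.111), without replicate 3 of the libraries alone -1.43 (edgeR adjusted p = 0.0628), and without cocultured replicate 3 -0.98 (edgeR adjusted p = 0.0499), under 2-fold. Extl2 did not pass the test, at 0.19 on the log2 scale (edgeR adjusted p = 0.0942).

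N-sulfation is the step on which the later modifications depend, and the NDST family contained the largest increase. Ndst4 (ENSMUSG00000027971, chr3:125404076-125728899, plus strand) had 3, 8 and 2 counts in the libraries alone and 256, 242 and 313 counts after coculture. Every cocultured library lay far above every library alone, at 19.05, 19.03 and 23.83 CPM against 0.233, 0.633 and 0.169 CPM. Ndst4 had enough counts to be tested only through the cocultured libraries, where it was high. The means were 0.345 ± 0.251 and 20.6 ± 2.77 CPM, 59.8-fold apart, and the fitted log2 fold change was 5.85 ± 0.29 (SE), the 11th highest of the 13088 genes tested. Since 2 of the libraries alone held 3 counts or fewer, the ratio of the summed counts, 13 alone and 811 after coculture, is given with its interval: 59.3-fold, with an exact 95% interval of 34.5 to 112 that covers counting error only. Over the fits that left out a library, the log2 fold change was lowest without replicate 3 of the libraries alone, at 5.55. It was highest without replicate 2 of the libraries alone, the one with 8 counts, at 6.61.

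The large relative change in Ndst4 took place at a low level. On the FPKM scale, which is per length, Ndst4 went from 0.0202 to 1.27, while Ndst1, the most abundant NDST of these cells, stayed at 23.3 and 23.0. Ndst1 measured 148.3, 139.9 and 146.7 CPM alone and 145.0, 136.6 and 128.9 CPM after coculture, overlapping groups with a log2 fold change of -0.08 (edgeR adjusted p = 0.36). Ndst4 made up 0.061 ± 0.0468% of the summed NDST level alone and 3.80 ± 0.762% after coculture, and Ndst1 made up 69.2 ± 0.958% and 68.6 ± 0.854%. The summed level of the family was 33.8 ± 1.36 FPKM alone and 33.5 ± 2.05 FPKM after coculture. Ndst2 (log2 fold change -0.23, edgeR adjusted p = 0.12) did not pass the test.

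Ndst3, the paralog on the same chromosome as Ndst4, had 6, 19 and 5 counts alone and 19, 7 and 25 after coculture, and the groups overlapped (log2 fold change 0.68 ± 0.58, edgeR adjusted p = 0.395). Ndst3 and Ndst4 lie 1713 kb apart on opposite strands with 3 protein-coding genes between them. Their transcripts shared 7 of the 11766 distinct 50-base words of Ndst4, and Ndst1 and Ndst2 shared 0 with it.

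**Figure D3:**
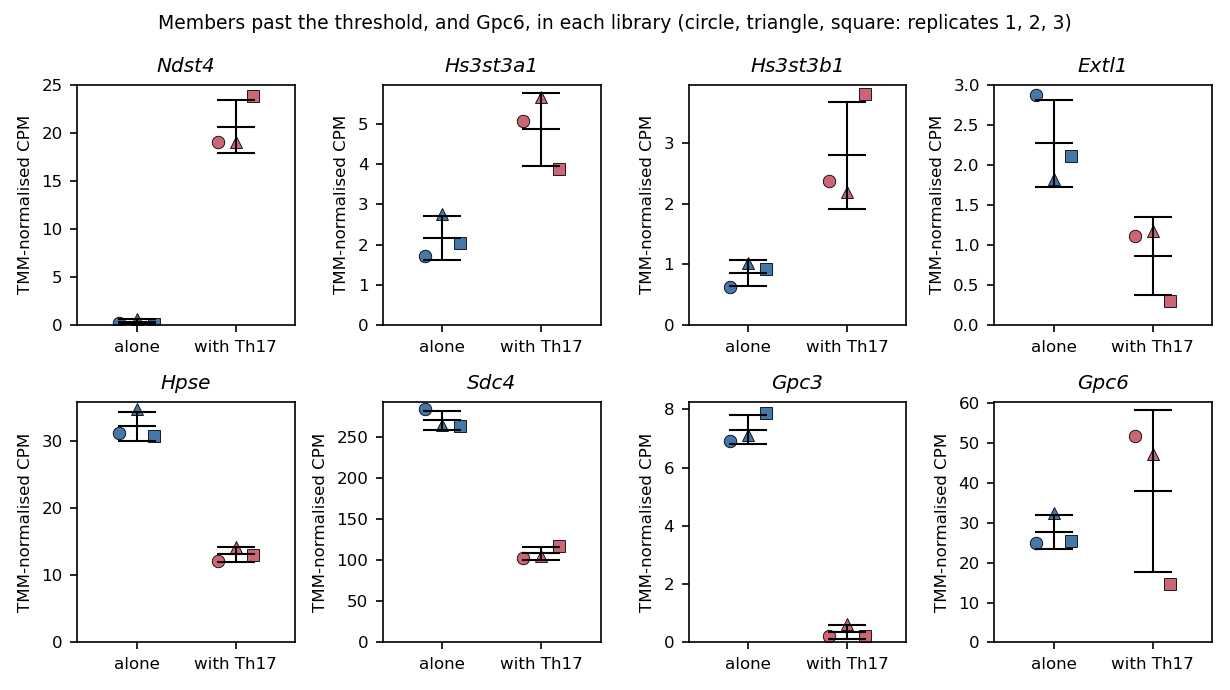
CPM (y axis, from 0) is plotted for each library of the 7 genes past the threshold and of Gpc6, with fibroblasts alone in blue, cocultured fibroblasts in red, and the mean and SD in black. The groups are separate in the first 7 panels, whose genes were picked for passing the threshold, and in 50.4% of all genes tested. In Gpc6 cocultured replicate 3 (14.54 CPM) lies below every library alone while the other cocultured libraries lie above.

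Glce, the epimerase that turns glucuronic into iduronic acid, measured 134.8, 131.0 and 142.2 CPM alone and 92.5, 91.99 and 102.3 CPM after coculture. Every cocultured library was lower, and Glce fell by 0.51 ± 0.07 on the log2 scale (edgeR adjusted p = 0.000421), although an exon of the microRNA gene Mir5133 overlaps it on the same strand. Hs2st1, which sulfates the iduronic acid at the 2-O position, measured 91.1 ± 3.10 CPM alone and 102 ± 2.32 CPM after coculture and did not pass the test (log2 fold change 0.16, edgeR adjusted p = 0.0691).

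The 6-O-sulfotransferases place sulfate groups that many growth factors need for binding. Hs6st1 fell from 95.1 ± 5.85 to 63.0 ± 6.12 CPM (log2 fold change -0.59 ± 0.09, edgeR adjusted p = 0.000721), while Hs6st2 measured 143.6, 125.9 and 123.6 CPM alone and 135.7, 126.7 and 129.6 CPM after coculture, with groups that overlapped and a log2 fold change of 0.00 (edgeR adjusted p = 0.973). Hs6st1 therefore made up 50.1 ± 3.57% of the summed HS6ST level alone and 39.9 ± 2.69% after coculture, and the difference between the paralogs' changes was not tested. Hs6st3 had 0 counts in every library.

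The 3-O-sulfotransferases add the rarest of the modifications, and the 3 that could be tested had higher means after coculture. Hs3st1, the isoform known for the antithrombin-binding site, was the most abundant, with 11.11, 12.41 and 11.42 CPM alone and 13.47, 13.99 and 15.31 CPM after coculture. Its groups did not overlap, but its log2 fold change of 0.29 ± 0.11 did not pass the test (edgeR adjusted p = 0.0757). Hs3st3a1, which with Hs3st3b1 makes a site known as an entry receptor for herpes simplex virus, had 22, 35 and 24 counts alone and 68, 72 and 51 after coculture. It rose from 2.17 ± 0.543 to 4.87 ± 0.904 CPM (log2 fold change 1.16 ± 0.25, edgeR adjusted p = 0.00544).

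Hs3st3b1 had 8, 13 and 11 counts alone and 32, 28 and 50 after coculture, and rose from 0.860 ± 0.212 to 2.80 ± 0.880 CPM (log2 fold change 1.69 ± 0.34, edgeR adjusted p = 0.00389). In both genes every cocultured library was above every library alone, where 50.4% of all genes tested showed no overlap in either direction. The transcripts of this pair are partly alike, with 416 shared 50-base words, 10.7% of those of Hs3st3a1 and 8.56% of those of Hs3st3b1, so some fragments could have been assigned to either. The exons of Hs3st3a1 also overlap F930015N05Rik on the opposite strand, and whether counting used the strand was not stated. The summed HS3ST level was 3.33 ± 0.658 FPKM alone and 4.93 ± 0.112 FPKM after coculture. Hs3st2 had 0 counts in every library, and Hs3st6 had 2, 11 and 0 counts alone and 3, 1 and 0 after coculture, too few to test.

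The SULF genes fell in 2 of 2 cases, where 20.0% of all genes were lower with no limit on fold change. Sulf1, an endosulfatase that removes 6-O-sulfate outside the cell, measured 188.1, 188.9 and 186.2 CPM alone and 145.0, 155.0 and 140.3 CPM after coculture (log2 fold change -0.35 ± 0.06, edgeR adjusted p = 0.00165). Sulf2 fell further, from 81.1 ± 3.69 to 46.1 ± 4.38 CPM (log2 fold change -0.81 ± 0.09, edgeR adjusted p = 9.45e-05), and among those of the 34 genes with an adjusted p below 0.05 it lay closest to the 2-fold limit from below, with Ncoa3 overlapping it on the opposite strand. The groups did not overlap in either gene, as in 50.4% of all genes tested. The summed SULF level was 20.8 ± 0.476 FPKM alone and 14.9 ± 0.853 FPKM after coculture.

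Hpse, the endoglycosidase that cuts the chain, had 400, 438 and 362 counts alone and 162, 181 and 171 after coculture. These correspond to 31.07, 34.63 and 30.63 CPM and to 12.06, 14.23 and 13.02 CPM, and every cocultured library lay below every library alone. Hpse fell 2.45-fold (log2 fold change -1.29 ± 0.11, edgeR adjusted p = 1.6e-05).

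**Figure D4:**
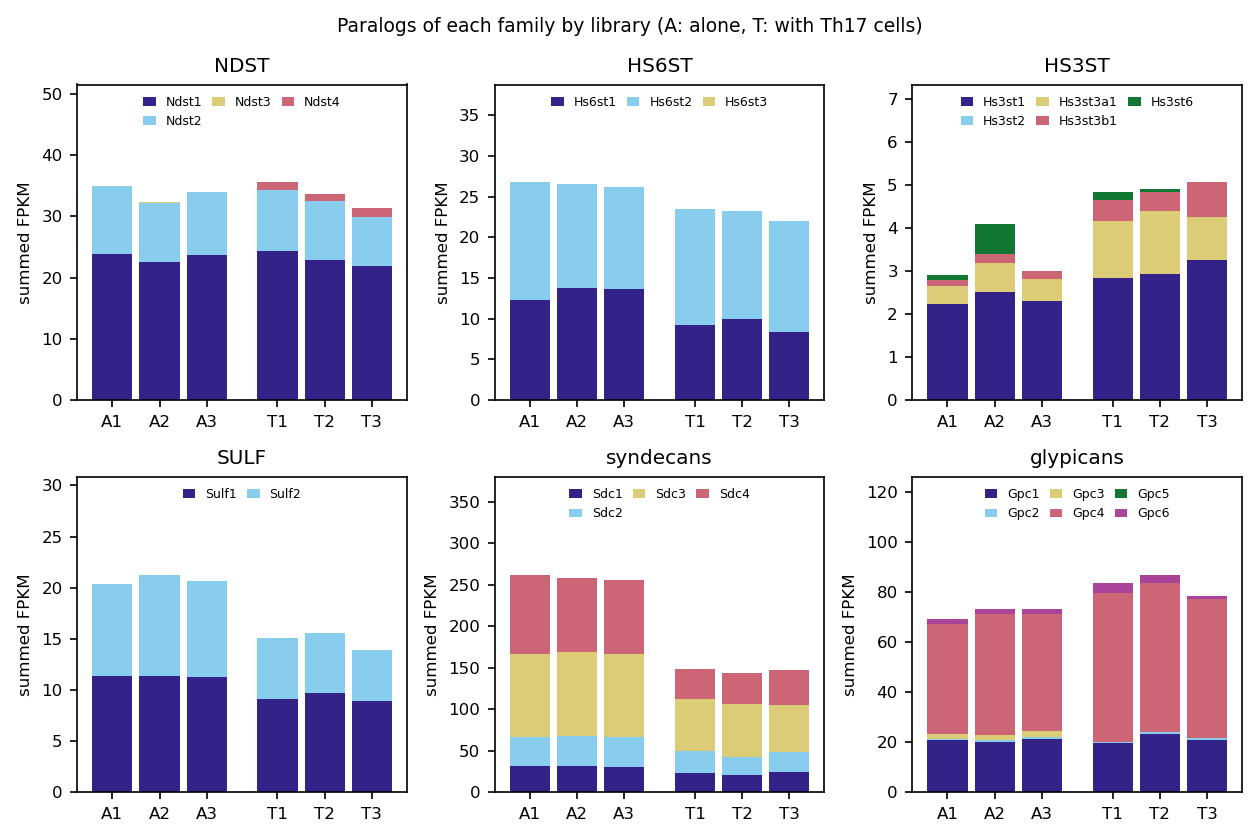
FPKM (y axis) is stacked by paralog for each library of the NDST, HS6ST, HS3ST, SULF, syndecan and glypican families, with A1 to A3 for fibroblasts alone and T1 to T3 for fibroblasts with Th17 cells. The syndecan bars drop from a mean of 259 to 147 FPKM in sum, while the glypican bars, made up mostly of Gpc4, are somewhat taller after coculture (72.0 against 83.1 FPKM). FPKM lacks the library scaling factors of the edgeR fit, 0.976 to 0.982 alone and 1.015 to 1.029 after coculture. These factors would lower the cocultured sums relative to those alone.

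Turning to the core proteins, all 4 syndecans fell with no limit on fold change, as did 20.0% of all genes, and the groups did not overlap in any of them, as in 50.4% of all genes. The family sum was 259 ± 3.33 FPKM alone and 147 ± 2.63 FPKM after coculture. Sdc4, the syndecan found at focal adhesions, fell most, from 283.6, 264.2 and 262.7 CPM alone to 102.2, 105.0 and 117.3 CPM after coculture, a 2.50-fold change (log2 fold change -1.32 ± 0.07, edgeR adjusted p = 1.11e-06). Its share of the syndecan sum was 35.4 ± 1.05% alone and 26.1 ± 2.10% after coculture.

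Sdc3, the most abundant syndecan, measured 711.2, 719.6 and 706.3 CPM alone and 427.9, 442.5 and 381.2 CPM after coculture (log2 fold change -0.77 ± 0.07, edgeR adjusted p = 2.08e-05). Sdc2, the syndecan typical of mesenchymal cells, fell from 136 ± 3.43 to 89.0 ± 9.36 CPM (log2 fold change -0.61 ± 0.08, edgeR adjusted p = 0.000376). Sdc1, the syndecan typical of epithelia and plasma cells, fell from 208.5 ± 5.4 to 143 ± 13.5 CPM (log2 fold change -0.54 ± 0.08, edgeR adjusted p = 0.000535). Of the 8 fibroblast markers, 7 were also lower after coculture, with Pdgfra at -0.35, Vim at -0.52 and Col1a1 at -1.27 on the log2 scale, whereas Dcn was higher, and their part in these results was not tested.

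Of the glypicans, Gpc3 fell and Gpc4 rose. Gpc3, known for binding Hedgehog proteins and for its loss in an overgrowth syndrome, had 89, 90 and 93 counts alone and 3, 8 and 3 after coculture. The means were 7.30 ± 0.504 and 0.360 ± 0.233 CPM, 20.3-fold apart, with a log2 fold change of -4.32 ± 0.32 (edgeR adjusted p = 7.92e-06). Gpc3 had enough counts to be tested only through the libraries alone, where it was high, so this p-value is no independent support. In 2 of the cocultured libraries 3 counts were found, and the ratio of the summed counts, 272 alone and 14 after coculture, was 20.4 with an exact 95% interval of 12.0 to 37.9, which again covers counting error only. Without cocultured replicate 2, the one with 8 counts, the log2 fold change was -4.95, the largest fall among the 13 alternative fits that tested Gpc3.

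Gpc4, the neighbour of Gpc3 and the most abundant glypican, measured 119.9, 130.5 and 126.6 CPM alone and 154.3, 154.7 and 143.8 CPM after coculture. The groups did not overlap and the increase was small (log2 fold change 0.26 ± 0.06, edgeR adjusted p = 0.0103). Its share of the glypican sum was 64.3 ± 0.970% alone and 70.0 ± 1.74% after coculture, and that of Gpc3 was 3.19 ± 0.183% and 0.140 ± 0.0832%. Hs6st2, which lies 371.2 kb from Gpc4 on the same chromosome, had the log2 fold change of 0.00 given above.

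Gpc6 had 322, 411 and 301 counts alone and 696, 601 and 191 after coculture. Cocultured replicates 1 and 2 were above every library alone and cocultured replicate 3 was below every one, so the groups overlapped and the log2 fold change of 0.45 ± 0.38 did not pass the test (edgeR adjusted p = 0.383). Without cocultured replicate 3 it was 0.84 (edgeR adjusted p = 0.0013), still under 2-fold, so this library alone decided whether Gpc6 passed the adjusted p limit. Gpc1 and Gpc2 overlapped between the groups, with log2 fold changes of -0.03 (edgeR adjusted p = 0.785) and 0.26 (edgeR adjusted p = 0.327), and Gpc5 had 0 counts in every library.

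Perlecan (Hspg2), the large secreted core protein of basement membranes, had the higher level of the secreted pair, 60.1 FPKM alone and 46.7 FPKM after coculture. It measured 1057, 1017 and 1012 CPM alone and 780.8, 806.2 and 709.3 CPM after coculture. Every cocultured library was lower, and Hspg2 fell by 0.43 ± 0.06 on the log2 scale (edgeR adjusted p = 0.000616). Agrin (Agrn), the other secreted core protein, fell from 493 ± 7.62 to 394 ± 18.8 CPM (log2 fold change -0.32 ± 0.06, edgeR adjusted p = 0.00198). Exons of Hs6st1, Sdc3 and Gpc1 overlap other genes on the opposite strand, and those of Gpc2 on the same strand, which leaves their counts less certain.

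A list of other genes of the pathway was set beside these. Of 31 genes of the linker, the sulfate donor, the sugar nucleotides, lysosomal breakdown and further heparan sulfate genes, 28 were tested and 0 passed both limits in either direction, where 3.87% of all genes were higher and 7.78% lower. With no limit on fold change, 6 of the 28 were higher and 6 lower at an edgeR adjusted p below 0.05, beside 17.1% and 20.0% of all genes, and the median log2 fold change was 0.03. By role, 2 of 7 linker genes and 4 of 8 lysosomal genes were higher, and 3 of 7 sugar nucleotide genes, 1 of 4 sulfate donor genes and 2 of 2 further heparan sulfate genes were lower, beside the same shares of all genes, with none in the other direction.

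Among these, Papss1, which makes the sulfate donor, fell from 62.7 ± 5.37 to 38.4 ± 2.75 CPM (log2 fold change -0.71 ± 0.09, edgeR adjusted p = 0.00033), and collagen XVIII (Col18a1), a further core protein, fell from 54.0 ± 1.99 to 29.4 ± 1.80 CPM (log2 fold change -0.88 ± 0.08, edgeR adjusted p = 3.34e-05). Both were singled out after their values were seen. Hs3st4, Hs3st5 and Hpse2 were too low to test.

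Chondroitin and dermatan sulfate, built on the same linker, were set beside them. Of 16 of their synthesis genes, 14 were tested, 1 was higher and 1 lower past both limits, beside 3.87% and 7.78% of all genes, and the median log2 fold change was 0.03. Csgalnact1, which commits a linker to chondroitin sulfate, rose from 13.5 ± 0.709 to 29.0 ± 4.38 CPM (log2 fold change 1.10 ± 0.13, edgeR adjusted p = 0.00016), and without cocultured replicate 3 it was 1.97-fold higher (edgeR adjusted p = 0.000294), just under the 2-fold limit. Chsy3, a chondroitin polymerase, fell from 11.1 ± 1.3 to 4.31 ± 0.425 CPM (log2 fold change -1.37 ± 0.16, edgeR adjusted p = 0.000148).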

How the data were processed

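RNA sequencing libraries of renal fibroblasts, 3 cultured alone and 3 cocultured with Th17 cells, were analysed. Reads were quality-filtered by the authors in Seqtk and mapped to mm10 in HISAT2 2.0.4. StringTie 1.3.3b then gave fragment counts per gene, which the authors deposited unnormalised. The authors also deposited FPKM values, scaled to gene length and library total without TMM. In 11144 of 11144 genes with at least 25 counts per library, FPKM implied 1 gene length in all libraries within 0.1%. Annotation version, strand use and handling of shared fragments are not given in the sources used here.

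Counts were tested with edgeR 4.0.16 in R 4.3.3 (TMM factors, default expression filter, quasi-likelihood F test, cocultured against alone, no covariate, all 6 libraries), with Benjamini-Hochberg adjustment over 13088 genes and the limits the study's methods name, an adjusted p of 0.05 and a 2-fold change. SE is the fold change divided by the square root of F. CPM used TMM-scaled totals. Levels were compared between genes only as FPKM. The 34 genes and the comparison lists were chosen with earlier results of these data known. Values in every library were given for those of the 34 past both limits and for the gene with the highest mean FPKM of each role. Chondroitin and dermatan sulfate genes were named where they passed both limits. No other pathway gene passed both limits, and those given with values were singled out after their values were seen. The scripts were tested on simulated data. No library was a copy of another (chi-square per gene of at least 6.30 between libraries of a group). Same-numbered libraries did not deviate together (r of 0.0157, -0.0256 and -0.0036), so replicate numbers were not used as pairs. Alternatives were other normalization factors, other filters, DESeq2 1.42.0, limma 3.58.1 on log2(FPKM + 1), a replicate block, no limit on fold change, CPM in place of FPKM in family shares, and leaving out each library.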

Additional observations from a re-analysis of the deposited data

How the results depend on the processing

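Of 415 log2 fold changes of the 30 genes over 14 alternative settings, 399 kept their direction and their call, where a call needs both limits to be passed, 6 lost the call, 0 gained it and 10 changed sign. At the adjusted p limit alone Extl1 lost its call without alone replicates 1 or 3, and Hs2st1 and Hs3st1 gained one with library size only and with limma, Extl2 with library size only and Gpc6 without cocultured replicate 3. The sign changes were in Hs6st2 and Gpc1, which did not pass the test. Hs6st2 was 0.0029 with upper quartile factors, 0.0596 with library size only, 0.0014 with at least 10 counts in every library, 0.0578 with limma, and -0.0456 to 0.0646 over the fits that left out a library. Gpc1 was 0.0312 with library size only, 0.027 with limma and -0.1085 to 0.0246 over the fits that left out a library. The 6 lost calls were 4 of Extl1 (3 given above without a library, and -0.33 with limma) and, with limma, Hs3st3a1 (0.55) and Hs3st3b1 (0.43). The limma values are on the log2(FPKM + 1) scale, which understates the change of low genes: Ndst4 was 1.15 and Gpc3 -1.56 there. Requiring 10 counts in every library left Ndst4, Hs3st3b1, Extl1, Ndst3 and Gpc3 untested, so 1 enzyme was called higher, 1 enzyme lower and 1 core protein lower. With limma 1 enzyme was called higher and 1 lower, and 0 chondroitin genes in each direction. With no limit on fold change the lower calls were 7 enzymes and 7 core proteins, 1 core protein was higher, 6 other pathway genes were higher and 6 lower, and 3 chondroitin genes were higher and 2 lower. Leaving out each library gave 1 to 2 enzymes lower and 0 to 1 chondroitin genes higher (0 without cocultured replicate 3). A replicate block gave the same counts as without it, 3 enzymes higher and 2 lower and 2 core proteins lower, and not every library correlated best with its own number. Over all genes, 1524 passed both limits, 1064 with at least 10 counts in every library and 626 with limma. With library size only the median of all genes moved to 0.067.

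With CPM in place of FPKM, family shares alone and after coculture were 0.193% and 11.0% for Ndst4, 42.1% and 32.5% for Hs6st1, 30.1% and 23.9% for Sulf2, 20.4% and 14.3% for Sdc4 and 41.7% and 46.2% for Gpc4, and 64.7% for Hs3st1 after coculture. Each kept its direction between the cultures. Depth limited the genes with few counts, among them Ndst4 and Hs3st3b1 alone, Gpc3 after coculture, and Extl1 and Ndst3 in both groups.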

Other observations

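The spread between cocultured libraries was uneven over the pathway. Among 9740 genes with a mean of at least 100 counts, the coefficient of variation of Gpc6 was 53.7% after coculture, the 58th highest, and 15.2% alone, beside medians over all these genes of 8.39% after coculture and 5.79% alone. Pxylp1, the phosphatase that releases the linker for elongation, had 143, 238 and 229 counts alone and 326, 335 and 107 after coculture, and its coefficient of variation was high in both groups, 28.1% alone and 50.8% after coculture. In both genes cocultured replicate 3 was the low library. Of the same 9740 genes, 30 were more than 2-fold below both other cocultured libraries in replicate 3, 22 in replicate 1 and 21 in replicate 2. The genes were singled out after their values were seen, and the cause was not tested.

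Of the 8 lysosomal enzymes that break heparan sulfate down inside the cell, 4 had higher levels after coculture with no limit on fold change. Sgsh, the sulfamidase, measured 14.45, 14.63 and 14.47 CPM alone and 24.04, 23.59 and 18.35 CPM after coculture (log2 fold change 0.60 ± 0.13, edgeR adjusted p = 0.00494). Gusb (0.32) and Hgsnat (0.27) also rose, while Naglu had a log2 fold change of -0.24 that did not pass the test (edgeR adjusted p = 0.101).

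On the linker, B4galt7 rose from 32.0 ± 2.05 to 45.2 ± 2.85 CPM (log2 fold change 0.50 ± 0.09, edgeR adjusted p = 0.00184), and Xylt1, which adds the starting xylose, rose from 5.45 ± 0.398 to 7.78 ± 0.713 CPM (log2 fold change 0.51 ± 0.15, edgeR adjusted p = 0.0249). Ugdh, which makes the glucuronic acid donor, fell from 393 ± 4.91 to 309 ± 14.5 CPM (log2 fold change -0.35 ± 0.06, edgeR adjusted p = 0.00132). The lysosomal, linker and sugar nucleotide genes named here were singled out after their values were seen.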
